A study of Mus musculus with 41 samples.

Results

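The CDK inhibitors and the p53 axis were followed through 10 genes of mouse bone, picked by gene symbol with earlier results of these data known. They are the 4 INK4 inhibitors Cdkn2a, Cdkn2b, Cdkn2c and Cdkn2d, the 2 CIP/KIP inhibitors Cdkn1a and Cdkn1b, the p53 pathway genes Trp53, Mdm2 and Ccng1, and the retinoblastoma gene Rb1. All 10 were found among the 43346 genes of the table, and all 10 were among the 19292 genes with enough reads to be tested. The RNA came from the tibial shafts of 41 female INK-ATTAC mice on a C57BL/6 background, after the bones had been centrifuged. Every mouse of every group carried the INK-ATTAC transgene, in which a fragment of the p16Ink4a promoter drives a caspase-8 fusion that the dimerizer drug AP20187 (AP) activates. The transgene therefore reports on cells in which that promoter fragment is active, and the endogenous Cdkn2a gene is intact in these mice. The groups were young mice given vehicle (n = 12), old mice given vehicle (old + veh, n = 13) and old mice given AP (old + AP, n = 16). The young mice were 6 to 12 months old by the labels, at the lower end of that range by the study's methods. The old mice were 20 months old at the start and were injected for 4 months, with AP at 10 mg per kg body mass in the old + AP group. The labels give the molecule as genomic DNA, whereas the extraction protocol and the study describe RNA.

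CDK inhibitors are small proteins that hold cyclin-dependent kinases in check. INK4 proteins bind CDK4 and CDK6 alone, and CIP/KIP proteins bind cyclin-CDK pairs. When these kinases are held off, the retinoblastoma protein stays unphosphorylated, E2F factors stay bound and the cell does not enter S phase. The transcription factor p53 acts upstream of this arrest by switching on Cdkn1a, while its target Mdm2 marks p53 for degradation, so that the loop limits itself. In senescent cells p16Ink4a and p21Cip1 (the product of Cdkn1a) are the inhibitors most often measured, and p16Ink4a is the gene whose promoter the transgene borrows.

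The Cdkn2a gene encodes 2 unrelated proteins from 2 promoters, p16Ink4a and p19Arf, an inhibitor of Mdm2. In the GENCODE annotation of GRCm38 the p16Ink4a transcript starts with an exon of 207 bases at 4:89281986-89282192, and the Arf transcript with an exon of 320 bases at 4:89294334-89294653. The 2 transcripts share 575 of the 1172 exonic bases of the gene (49.1%), in another reading frame. The length given for Cdkn2a in the table is that whole union of 1172 bases, so the counts are sums over both transcripts and cannot separate p16Ink4a from Arf. Below, Cdkn2a means that sum. The upstream sequences that bear on these results are those of Cdkn1a, the textbook p53 target, and of the p16Ink4a start of Cdkn2a and its neighbour Cdkn2b, the INK4 genes of one locus. Each is the 250 bases before a RefSeq start on GRCm38.p6, written in the direction of transcription. Capitals mark matches to CATGNNNNNNCATG, the core of a pair of p53 binding elements, in Cdkn1a, and in the others would mark GGGCGG, the Sp1 box, which neither holds.
Cdkn1a, chr17:29090729-29090978, plus strand: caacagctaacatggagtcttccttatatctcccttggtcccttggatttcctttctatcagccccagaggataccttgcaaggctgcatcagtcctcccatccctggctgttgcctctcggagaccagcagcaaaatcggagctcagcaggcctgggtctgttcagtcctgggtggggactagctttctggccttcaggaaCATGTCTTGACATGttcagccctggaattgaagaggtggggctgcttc
Cdkn2a at the p16Ink4a start, chr4:89282193-89282442, minus strand: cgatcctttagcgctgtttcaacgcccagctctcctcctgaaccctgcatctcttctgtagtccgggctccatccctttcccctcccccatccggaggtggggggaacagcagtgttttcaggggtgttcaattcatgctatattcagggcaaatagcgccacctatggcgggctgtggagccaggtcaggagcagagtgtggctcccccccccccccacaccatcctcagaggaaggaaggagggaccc
Cdkn2b, chr4:89311033-89311282, minus strand: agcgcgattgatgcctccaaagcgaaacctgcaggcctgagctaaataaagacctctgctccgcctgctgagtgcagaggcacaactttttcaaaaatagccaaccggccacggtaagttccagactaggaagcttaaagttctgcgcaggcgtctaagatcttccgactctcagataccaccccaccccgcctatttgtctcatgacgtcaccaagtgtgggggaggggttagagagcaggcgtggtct
The Cdkn1a window held the p53 core once, from 48 to 35 bases before the start. A further RefSeq start of Cdkn1a, with its window at chr17:29093519-29093768, held no match to that core and 2 to GGGCGG. Of 32851 RefSeq promoter windows of this length, 0.490% held that motif on either strand. GGGCGG was in 32.7% of them. The p16Ink4a window had 7 CG pairs and a GC content of 60%, and the Cdkn2b window had 12 CG pairs and 53.6%, against medians of 6 CG pairs and 52.4% over all windows. The window before the Arf start was far richer, with 40 CG pairs, a GC content of 78.4% and 2 matches to GGGCGG. The motif matches are descriptions of these letters and were not tested as binding sites.

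Total counts per mouse ran from 37028959 to 75942717. The bones held RNA of several tissues: osteoblast, osteocyte, muscle, erythroid and neutrophil markers were read in every group, and none of the matched markers of 13 cell types was at 0 in all mice. The summed level of 10 skeletal muscle markers ranged from 7002 to 107057 CPM (read counts scaled to a common library size) between mice. The summed level of 9 osteocyte markers ranged from 1168 to 1806 CPM in young mice, from 1032 to 2344 in old + veh mice and from 315 to 3686 in old + AP mice. Old + AP mice 18 and 19 stood apart. Their osteocyte marker scores (the mean log2 CPM of a list) were 4.04 and 3.85, below the other 39 mice (5.46 to 7.18), their chondrocyte scores were 5.68 and 5.11, above the other mice (1.63 to 4.30), and mouse 19 had the lowest muscle score of all mice. The main results that involve the old + AP group are therefore also given without both. Old + veh mouse 16 had the lowest erythroid score (6.25, next 6.62) and the lowest neutrophil score (8.55, next 9.24) of all mice. The changes of Cdkn1a, Eda2r, Gadd45a and Ets2 in old + veh against young mice are also given without mouse 16 below. In bulk RNA of this kind, fewer cells of a type and less RNA per cell cannot be told apart. The labels name no sequencing batch.

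The 10 genes were read at very different levels. Per kilobase of the length given in the table, and as a mean over the 41 mice, Ccng1 was highest at 74.5 ± 33.9 CPM per kb (SD, n = 41). It was followed by Cdkn1a (57.1 ± 19.05), Cdkn2d (37.2 ± 9.86) and Trp53 (17.7 ± 2.63). Cdkn1b (14.1 ± 1.97) and Mdm2 (14.1 ± 1.32) came next, ahead of Cdkn2c (9.80 ± 2.38) and Rb1 (9.13 ± 2.01). The bottom of the order was Cdkn2a (1.48 ± 1.4997), above Cdkn2b (0.869 ± 0.268). The steps from Cdkn2d to Trp53 and from Rb1 to Cdkn2a held in 41 of 41 mice. The step from Mdm2 to Cdkn2c was larger than both SDs together and held in 35 mice. All other neighbours differed by less than their SDs together. Cdkn1b lay above Mdm2 in 22 of 41 mice. These 2 and the lowest pair changed places between groups. In young mice Cdkn2a had a mean of 0.509 and Cdkn2b of 0.776 CPM per kb, and in old + veh mice 2.37 and 0.990. Cdkn1b and Mdm2 had means of 15.5 and 13.5 CPM per kb in young mice and of 12.9 and 14.5 in old + veh mice.

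**Figure D1:**
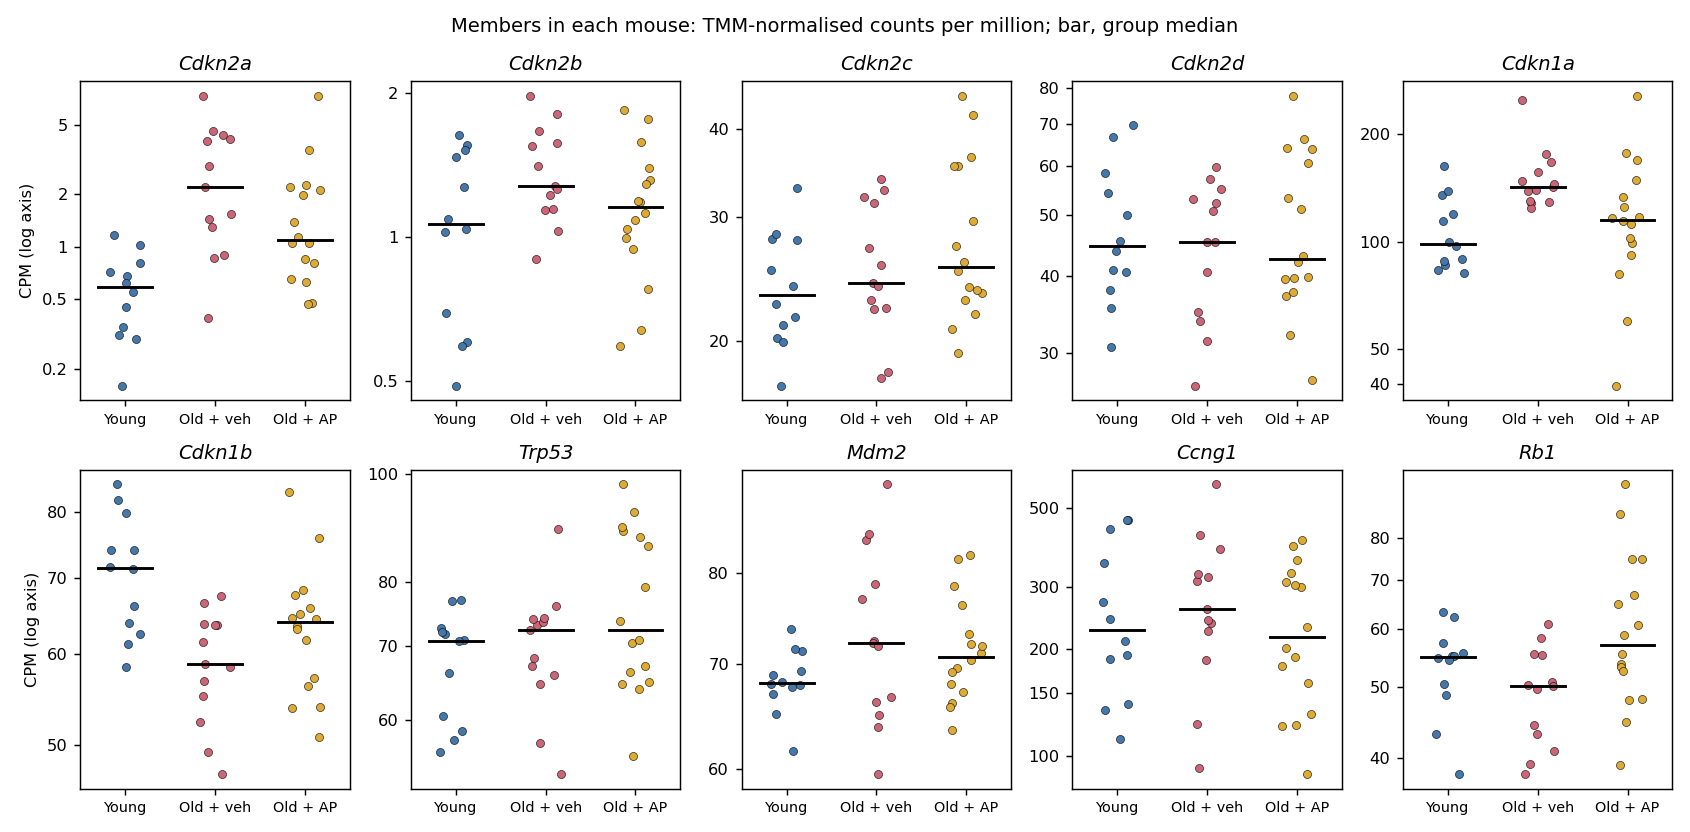
Each of the 10 genes in each mouse. The y axis is the TMM-normalised level in CPM on a log axis, each point is a mouse of the young (n = 12), old + veh (n = 13) or old + AP (n = 16) group, and the bar is the group median. Cdkn2a and Cdkn1a were raised in old + veh mice and Cdkn1b was lower, while Ccng1 spread 4.17- to 6.35-fold within every group.

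Of the INK4 genes, Cdkn2a (ENSMUSG00000044303, chromosome 4, 89274471 to 89294653) was the one that rose with age. In young mice it was 0.160 CPM at the lowest, 0.587 at the median and 1.18 at the highest. In old + veh mice these values were 0.394, 2.20 and 7.37 CPM. In old + AP mice they were 0.472, 1.10 and 7.29 CPM. The groups overlapped, although 10 of 13 old + veh mice and 7 of 16 old + AP mice were above the highest young mouse. The old groups were also wide: old + veh mouse 8 and old + AP mouse 24 each stood well above the next mouse of their group (4.62 and 3.59 CPM). The level in old + veh against young mice was 4.65-fold higher (log2 fold change 2.22, standard error 0.43, adjusted p = 0.000332, quasi-likelihood test of edgeR, Benjamini-Hochberg adjusted over all genes tested). Old + AP mice were 2.93-fold above young mice (1.55, standard error 0.41, adjusted p = 0.00773), and 1.67 on the log2 scale (adjusted p = 0.00585) without old + AP mice 18 and 19. Between old + AP and old + veh mice the log2 fold change was -0.67 (95% interval -1.42 to 0.09, adjusted p = 0.265). Without old + AP mouse 24 it was -1.01 (adjusted p = 0.0903), and without old + veh mouse 8 it was -0.46 (adjusted p = 0.473). It was -0.55 (adjusted p = 0.528) when old + AP mice 18 and 19 were left out. The rise with age was as large with the muscle score in the model (2.25, adjusted p = 0.000197) and with the neutrophil and erythroid scores in it (2.55, adjusted p = 0.00324).

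A call here is an adjusted p under 0.05 together with a log2 fold change above 0.5 or below -0.5. By that rule Cdkn2a was the only 1 of the 10 genes called in old + veh against young mice, where 9.06% of all genes tested were called (4.3% higher and 4.76% lower). It was also the only 1 of 10 called in old + AP against young mice, where 8.58% of all genes were called (3.73% higher and 4.85% lower). These 2 comparisons share the young mice, and each shares 1 old group with the comparison of AP and vehicle. For AP against vehicle in old mice edgeR called 0 of the 10 and 0.0726% of all genes, DESeq2 called 0 of the 10 and 217 of all 19292 genes, and 1 of the 10 (Rb1) had an unadjusted p under 0.05, against 23.9% of all genes. By adjusted p alone 3 of the 10 passed in old + veh against young mice (Cdkn2a, Cdkn1a and Cdkn1b), against 19.4% of all genes. By the same rule 1 of 10 passed in old + AP against young mice, against 17.8% of all genes, and 0 of 10 in old + AP against old + veh mice, against 0.171%.

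Cdkn2b (ENSMUSG00000073802, chromosome 4, 89306289 to 89311032) lies 11636 bases from Cdkn2a and encodes p15Ink4b, an inhibitor best known from TGF-beta signalling. It had young values of 0.489 to 1.63 CPM with 1.06 at the median. Old + veh mice lay between 0.899 and 1.97 CPM (median 1.28), and old + AP mice between 0.590 and 1.84 CPM (median 1.15). The groups overlapped over most of their range. Its log2 fold change was 0.36 in old + veh against young mice (95% interval -0.02 to 0.73, adjusted p = 0.183), with 11 of 13 old + veh mice above the young median, and -0.24 in old + AP against old + veh mice (adjusted p = 0.395). Mtap (chromosome 4, 89137122 to 89181081), a methionine salvage enzyme on the other side of Cdkn2a, was the other neighbour within 200000 bases with enough reads to test. It stood at 17.2 ± 2.20 CPM (SD, n = 12) in young, 19.2 ± 2.08 (n = 13) in old + veh and 20.4 ± 2.76 (n = 16) in old + AP mice. Its log2 fold change was 0.16 in old + veh against young mice (adjusted p = 0.132) and 0.24 in old + AP against young mice (adjusted p = 0.0125). Of these 3 genes of the locus, Cdkn2a alone was called in old + veh against young mice. The other 10 annotated neighbours in that span had between 0 and 197 reads in all 41 mice together and were not tested.

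Cdkn2c and Cdkn2d, the p18Ink4c and p19Ink4d inhibitors, did not pass the test in any of the 3 comparisons of the model without scores. Cdkn2c (ENSMUSG00000028551, chromosome 4, 109660876 to 109667189) had young values of 17.3 to 32.9 CPM with 23.3 at the median. Old + veh mice lay between 17.7 and 33.9 CPM (median 24.1), and old + AP mice between 19.2 and 44.6 CPM (median 25.5). Its log2 fold changes were 0.09 in old + veh against young (adjusted p = 0.659) and 0.25 in old + AP against young mice (95% interval -0.000625 to 0.50, adjusted p = 0.156), the latter 0.15 (adjusted p = 0.427) when old + AP mice 18 and 19 were left out. Cdkn2d (ENSMUSG00000096472, chromosome 9, 21288463 to 21291209) had young values of 30.7 to 69.9 CPM with 44.6 at the median. Old + veh mice lay between 26.6 and 59.8 CPM (median 45.3), and old + AP mice between 27.2 and 77.9 CPM (median 42.5). Its log2 fold changes were -0.09 in old + veh against young (adjusted p = 0.743) and 0.10 in old + AP against old + veh mice (adjusted p = 0.663). For both genes the highest old + AP mouse was mouse 19. Cdkn2c moved with the erythroid scores, as described below, and with the neutrophil and erythroid scores in the model its log2 fold change was 0.33 in old + veh against young mice (adjusted p = 0.00637) and 0.33 in old + AP against young mice (adjusted p = 0.00590).

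Cdkn1a (ENSMUSG00000023067, chromosome 17, 29090979 to 29100722), which encodes p21Cip1, was 81.7 CPM at the lowest, 98.3 at the median and 163 at the highest in young mice. In old + veh mice it was 124, 142 and 249 CPM. All 13 old + veh mice were above the young median, and 3 were above the highest young mouse. Mouse 16, which had the lowest erythroid and neutrophil scores of all mice, stood above the next mouse (176 CPM). In old + AP mice Cdkn1a was 39.6, 115 and 256 CPM, the widest range of the 3 groups. The lowest was mouse 19, and 10 of 16 old + AP mice were below every old + veh mouse. The level rose 1.41-fold in old + veh against young mice (log2 fold change 0.49, standard error 0.18, adjusted p = 0.0437), just under the fold change that a call needs. With 1 mouse left out at a time its log2 fold change ran from 0.41, without old + veh mouse 16 (adjusted p = 0.0962), to 0.56, without young mouse 40 (adjusted p = 0.0207). It passed the adjusted p in 10 of these 25 fits. The adjusted p was 0.0643 with the neutrophil and erythroid scores in the model (log2 fold change 0.51), 0.0498 with the muscle score (0.42) and 0.0656 with no filter on low counts (0.49). It was 0.00444 in a model of these 2 groups, 0.0138 when old + AP mice 18 and 19 were left out of the shared model, 0.0271 with DESeq2 and 0.0394 with its size factors in edgeR. Between old + AP and old + veh mice the log2 difference was -0.32 (95% interval -0.65 to 0.01, adjusted p = 0.218). Leaving out old + AP mice 18 and 19 gave -0.20 (adjusted p = 0.530).

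Cdkn1b (ENSMUSG00000003031, chromosome 6, 134920401 to 134925513), which encodes p27Kip1, an inhibitor that holds resting cells out of the cycle, went the other way. It was 58.5 CPM at the lowest, 71.4 at the median and 84.5 at the highest in young mice, and 47.1, 58.9 and 67.5 CPM in old + veh mice. All 13 old + veh mice were below the young median, and 5 were below the lowest young mouse. In old + AP mice it was 50.8, 64.0 and 83.3 CPM, again with mouse 19 at the top. It fell by 0.27 on the log2 scale in old + veh against young mice (standard error 0.07, adjusted p = 0.00621), and the adjusted p stayed under 0.05 in 25 of 25 fits with 1 mouse left out. The difference of -0.16 in old + AP against young mice had an adjusted p of 0.0971. Leaving out old + AP mice 18 and 19 gave -0.22 (adjusted p = 0.0231), and with the muscle score in the model it was -0.19 (adjusted p = 0.00117).

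**Figure D2:**
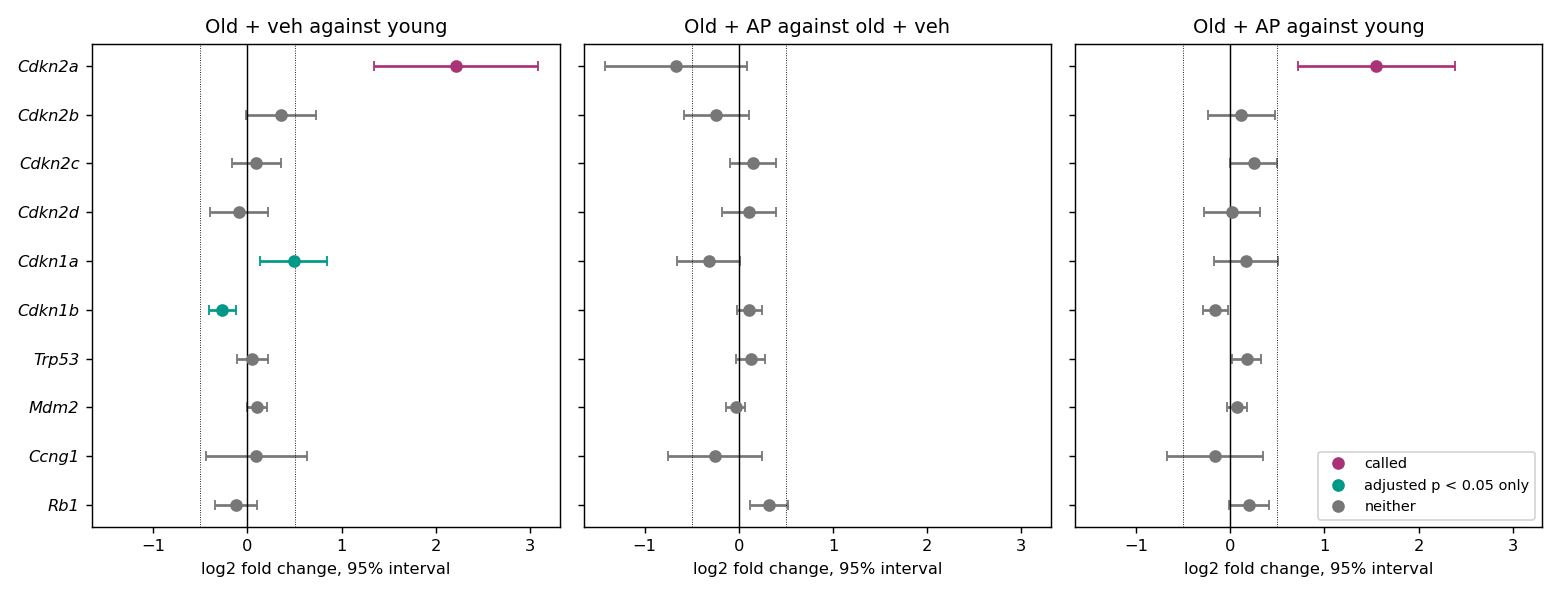
Log2 fold changes of the 10 genes with 95% intervals in the 3 comparisons. The dotted lines mark the fold change that a call needs (0.5 in either direction), and the colours mark genes called, genes past the adjusted p alone and genes past neither. Cdkn2a was called against young mice in both old groups, at 2.22 and 1.55, and Cdkn1a and Cdkn1b passed the adjusted p alone in old + veh mice.

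Of the p53 genes, none passed the test in any of the 3 comparisons of the model without scores. Trp53 (ENSMUSG00000059552, chromosome 11, 69580359 to 69591873) had young values of 56.3 to 77.0 CPM with 70.8 at the median. Old + veh mice lay between 53.7 and 89.3 CPM (median 72.4), and old + AP mice between 55.7 and 97.9 CPM (median 72.3). The log2 fold change of Trp53 in old + veh against young mice was 0.05 (95% interval -0.11 to 0.21, adjusted p = 0.719), and in old + AP against young mice 0.17 (adjusted p = 0.112), with 7 of 16 old + AP mice above the highest young mouse. The latter was 0.11 (adjusted p = 0.357) when old + AP mice 18 and 19 were left out, 0.13 (adjusted p = 0.0225) with the muscle score in the model and 0.18 (adjusted p = 0.197) with the neutrophil and erythroid scores. Mdm2 (ENSMUSG00000020184, chromosome 10, 117688888 to 117710758), the ubiquitin ligase for p53, was the steadiest of the 10 in young mice, from 61.6 to 73.7 CPM (median 68.1, coefficient of variation 4.58%). It ran from 59.6 to 91.2 CPM in old + veh mice (median 72.2, coefficient of variation 12.8%) and from 63.5 to 82.2 in old + AP mice (median 70.8). Its log2 fold change was 0.10 in old + veh against young mice (95% interval -0.01 to 0.21, adjusted p = 0.192) and -0.03 in old + AP against old + veh mice (adjusted p = 0.702). Ccng1 (ENSMUSG00000020326, chromosome 11, 40748552 to 40755311), cyclin G1, a p53 target that acts on Mdm2, had young values of 111 to 464 CPM with 226 at the median. Old + veh mice lay between 92.0 and 584 CPM (median 259), and old + AP mice between 88.5 and 405 CPM (median 216). Its groups overlapped almost entirely. Its log2 fold changes were 0.10 (95% interval -0.44 to 0.63, adjusted p = 0.844) in old + veh against young and -0.26 (adjusted p = 0.525) in old + AP against old + veh mice, and their intervals reach past 0.5 in size. The latter was -0.12 without old + veh mouse 20 and -0.14 when old + AP mice 18 and 19 were left out.

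Rb1 (ENSMUSG00000022105, chromosome 14, 73183673 to 73325822) had the smallest adjusted p of the 10 in old + AP against old + veh mice. It was 37.9 CPM at the lowest, 54.9 at the median and 63.3 at the highest in young mice. In old + veh mice it was 37.9, 50.2 and 60.9 CPM. In old + AP mice it was 39.1, 57.1 and 94.8 CPM, with mice 3 and 19 at the top and 6 of 16 above every old + veh mouse. The log2 fold change was 0.32 (standard error 0.10, p = 0.00321, adjusted p = 0.0761, edgeR). With 1 mouse left out the adjusted p ran from 0.0334 to 0.168 and was under 0.05 in 3 of 29 fits. With DESeq2 it was 0.0464. Without old + AP mice 18 and 19 the log2 fold change was 0.25 (adjusted p = 0.275), and with the muscle score in the model 0.22 (adjusted p = 0.196). Rb1 shares its span with 4 other annotated genes (Rcbtb2, Gm17233, Mir687 and Lpar6), and whether the counting used strand is not given in the sources used here, so its counts are less certain than those of the other 9 members, which overlap no annotated gene.

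The spread between mice, as the mean distance of each mouse from its group median, was compared in 20 permutation tests, 10 of old + veh against young mice and 10 of old + AP against old + veh mice. None passed after adjustment and 1 had an unadjusted p under 0.05. That was Mdm2, at 0.143 log2 units in old + veh against 0.045 in young mice (p = 0.00653, adjusted p = 0.131, permutation test with 100000 resamples). For Cdkn2a the distance was 0.9752 log2 units in old + veh mice and 0.601 in young mice (adjusted p = 0.379, permutation test). For Cdkn1a it was 0.425 log2 units in old + AP mice and 0.173 in old + veh mice (adjusted p = 0.379, permutation test).

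Within the groups, 8 pairs of members were compared across the 41 mice, after each group's mean log2 CPM had been taken away. Pearson's r passed in 5 pairs (p adjusted over the 8 pairs, two-sided permutation of mice within groups). Mdm2 and Ccng1 rose and fell together (r = 0.58, p = 0.00011, adjusted p = 0.00088; Spearman's rho 0.61, p = 6e-05, adjusted p = 0.00048, permutation tests), with r = 0.49 without the 2 mice farthest from the median. Cdkn2a and Cdkn2b did so too (r = 0.38, p = 0.00929, adjusted p = 0.0248; rho 0.42, p = 0.00565, adjusted p = 0.0151; r = 0.35 without the farthest 2). Their r was 0.60 among old + veh mice, 0.58 among old + AP mice and -0.01 among young mice, and the difference between these was not tested. Trp53 and Cdkn1a went in opposite directions (r = -0.45, p = 0.00708, adjusted p = 0.0248; rho -0.46, p = 0.00489, adjusted p = 0.0151; r = -0.51 without the farthest 2). Cdkn1a and Ccng1 had an r of 0.38 (p = 0.0148, adjusted p = 0.0295; rho 0.35, p = 0.031, adjusted p = 0.0495; r = 0.33 without the farthest 2, where the adjusted p was 0.0596). Trp53 and Mdm2 had an r of -0.37 (p = 0.0186, adjusted p = 0.0298; rho -0.36, p = 0.0214, adjusted p = 0.0428; r = -0.30 without the farthest 2, where the adjusted p was 0.0708). The last 2 relations kept their sign but did not pass without those mice. Trp53 and Cdkn1a had an r of 0.16 among old + veh mice, against -0.56 among young and -0.60 among old + AP mice, a difference that was not tested.

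The 3 other pairs did not pass. Cdkn1a and Mdm2, which are both p53 targets, had an r of -0.02 (p = 0.895, adjusted p = 0.895; rho 0.08, p = 0.626, adjusted p = 0.626). Cdkn2a and Cdkn1a had an r of 0.27 (p = 0.101, adjusted p = 0.135; rho 0.22, p = 0.173, adjusted p = 0.197), and 0.36 (adjusted p = 0.0437) without the farthest 2 mice. Cdkn2a and Rb1 had an r of -0.26 (p = 0.123, adjusted p = 0.140; rho -0.24, p = 0.149, adjusted p = 0.197). The skeletal muscle score moved with several of these genes, so the pairs were also compared with that score taken out of both. Mdm2 and Ccng1 then had an r of 0.73 and Cdkn2a and Cdkn2b of 0.48, while Trp53 with Cdkn1a had -0.12, Trp53 with Mdm2 -0.04 and Cdkn1a with Ccng1 -0.30 (adjusted p = 0.121). Cdkn2a with Cdkn1a (r = 0.37) and Cdkn2a with Rb1 (r = -0.39) passed in that form, each with an adjusted p of 0.0447. Without old + AP mice 18 and 19, 2 of the 8 pairs passed, Mdm2 with Ccng1 (r = 0.69) and Trp53 with Mdm2 (r = -0.44). Cdkn2a with Cdkn2b then had an r of 0.34 (adjusted p = 0.0714), Trp53 with Cdkn1a of -0.29 (adjusted p = 0.188) and Cdkn1a with Ccng1 of 0.18 (adjusted p = 0.411).

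Several of these genes moved with cell-type marker scores between mice, and what lies behind this was not tested. Each of the 10 genes was set against the marker score of each of 13 cell types. Of the 130 pairs 54 passed by Pearson's r, 54 by Spearman's rho and 47 by both (adjusted over 130). The share over all genes was not computed, so these counts are not read as a trait of the 10. The scores and the genes were read in the same libraries, and the marker scores are themselves related. Ccng1 followed the skeletal muscle score almost point by point (r = 0.96, rho = 0.97, and r = 0.97 without the farthest 2 mice). Cdkn2c followed the erythroid score (r = 0.89, rho = 0.91, and 0.86 without the farthest 2) and Cdkn2d the neutrophil score (r = 0.90, rho = 0.90, and 0.88). Cdkn1b also followed the neutrophil score (r = 0.81, rho = 0.80, and 0.76), Rb1 the erythroid score (r = 0.72, rho = 0.76, and 0.67), and Trp53 ran against the muscle score (r = -0.84, rho = -0.87, and -0.83). All of these had p = 1e-05, the smallest that 100000 permutations can give, with adjusted p = 7.65e-05 for Pearson's r and 7.22e-05 for rho.

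**Figure D3:**
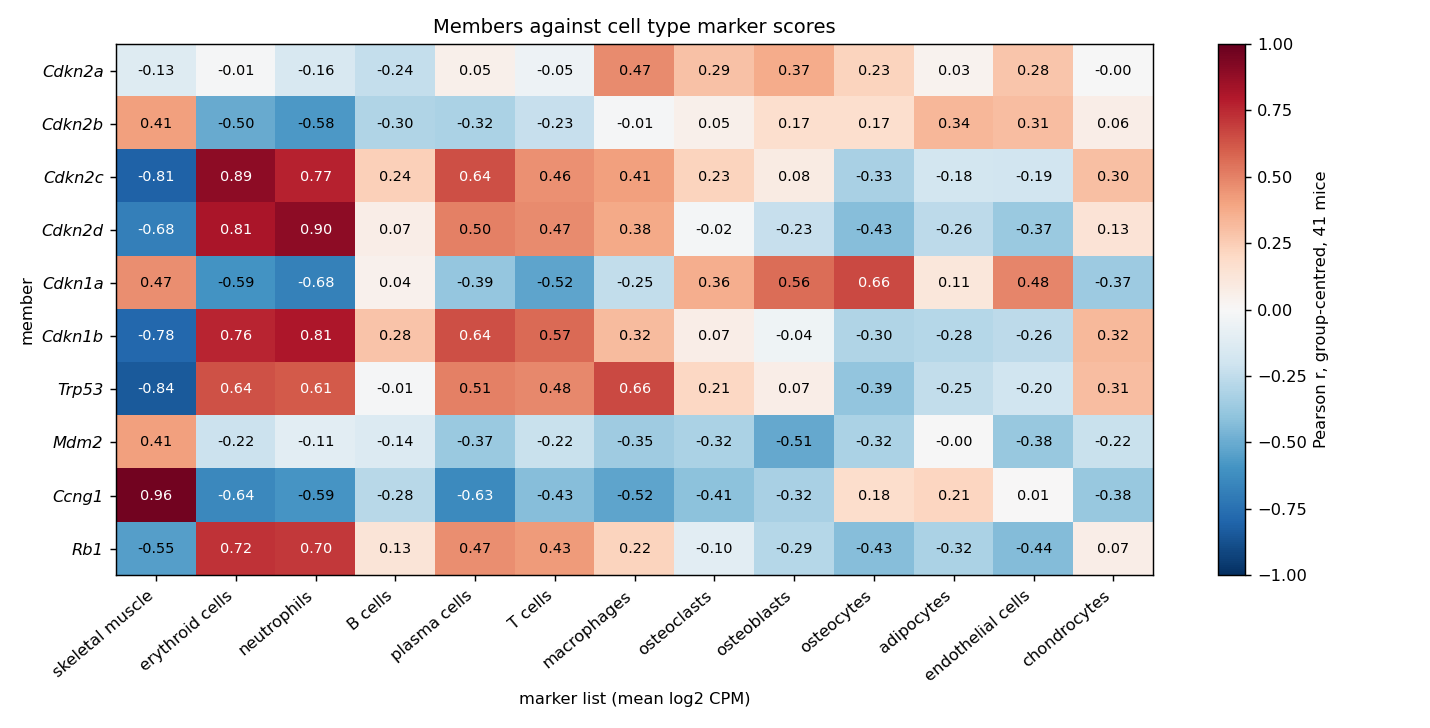
Pearson's r of each of the 10 genes with the marker score of each of 13 cell types, across 41 mice after each group's mean was removed. Rows are genes, columns are marker lists, red is positive and blue negative. Cdkn2c, Cdkn2d, Cdkn1b, Trp53 and Rb1 were positive with erythroid and neutrophil scores and negative with muscle, Ccng1 was the reverse, and the row of Cdkn2a is pale by this measure, with 0.47 for macrophages.

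Cdkn1a ran against the neutrophil score (r = -0.68, rho = -0.62, p = 1e-05 and 3e-05, adjusted p = 7.65e-05 and 0.000177, permutation tests, r = -0.58 without the farthest 2 mice) and with the osteocyte score (r = 0.66, rho = 0.44, p = 0.00019 and 0.00355, adjusted p = 0.00095 and 0.0121, r = 0.37 without the farthest 2). The osteocyte relation rested largely on old + AP mice 18 and 19, without which r was 0.32, and the neutrophil r was then -0.59. Among young mice and among old + veh mice the osteocyte r was -0.18 and -0.16, and among old + AP mice it was 0.89. Cdkn2a gave different answers by the 2 measures. By Pearson's r it passed with the macrophage score alone (r = 0.47, p = 0.00442, adjusted p = 0.0140), where rho was 0.31 (p = 0.0558, adjusted p = 0.105) and r was 0.29 without the farthest 2 mice. By rank it passed with the osteoblast score (rho = 0.59, p = 0.00011, adjusted p = 0.000596; r = 0.37, p = 0.0279, adjusted p = 0.0626), where r was 0.70 without the farthest 2 mice, and with the osteoclast score (rho = 0.38, p = 0.0164, adjusted p = 0.0410; r = 0.29, p = 0.0826, adjusted p = 0.143; r = 0.45 without the farthest 2). Summed osteoblast markers were lower in old + veh mice, from 15850 to 79660 CPM, than in young mice, from 35463 to 89515 CPM, while Cdkn2a was higher there. The r of Cdkn2a with muscle was -0.13 over all mice and -0.32 without old + AP mice 18 and 19, and it was -0.47 among young, -0.32 among old + veh and 0.18 among old + AP mice, a difference that was not tested. Mdm2 ran against the osteoblast score (r = -0.51, rho = -0.61, p = 0.00068 and 0.00012, adjusted p = 0.00268 and 0.000600, r = -0.60 without the farthest 2) and Cdkn2b against the neutrophil score (r = -0.58, rho = -0.52, p = 4e-05 and 0.00060, adjusted p = 0.000248 and 0.00252, r = -0.51 without the farthest 2). The part that cell makeup plays in the group differences was not tested beyond the models with scores given above. Between old + veh and young mice, 7 of 10 B cell, 3 of 9 erythroid, 3 of 9 osteoblast and 2 of 8 chondrocyte markers were called lower, against 4.76% of all genes. The median log2 fold change of the erythroid markers was -0.79, with 9 of 9 at an unadjusted p under 0.05. Other lists went up: 10 of 10 neutrophil (median 0.35, 0 called), 8 of 8 T cell (0.50, 0 called) and 9 of 10 muscle markers (0.29, 1 called) were positive.

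**Figure D4:**
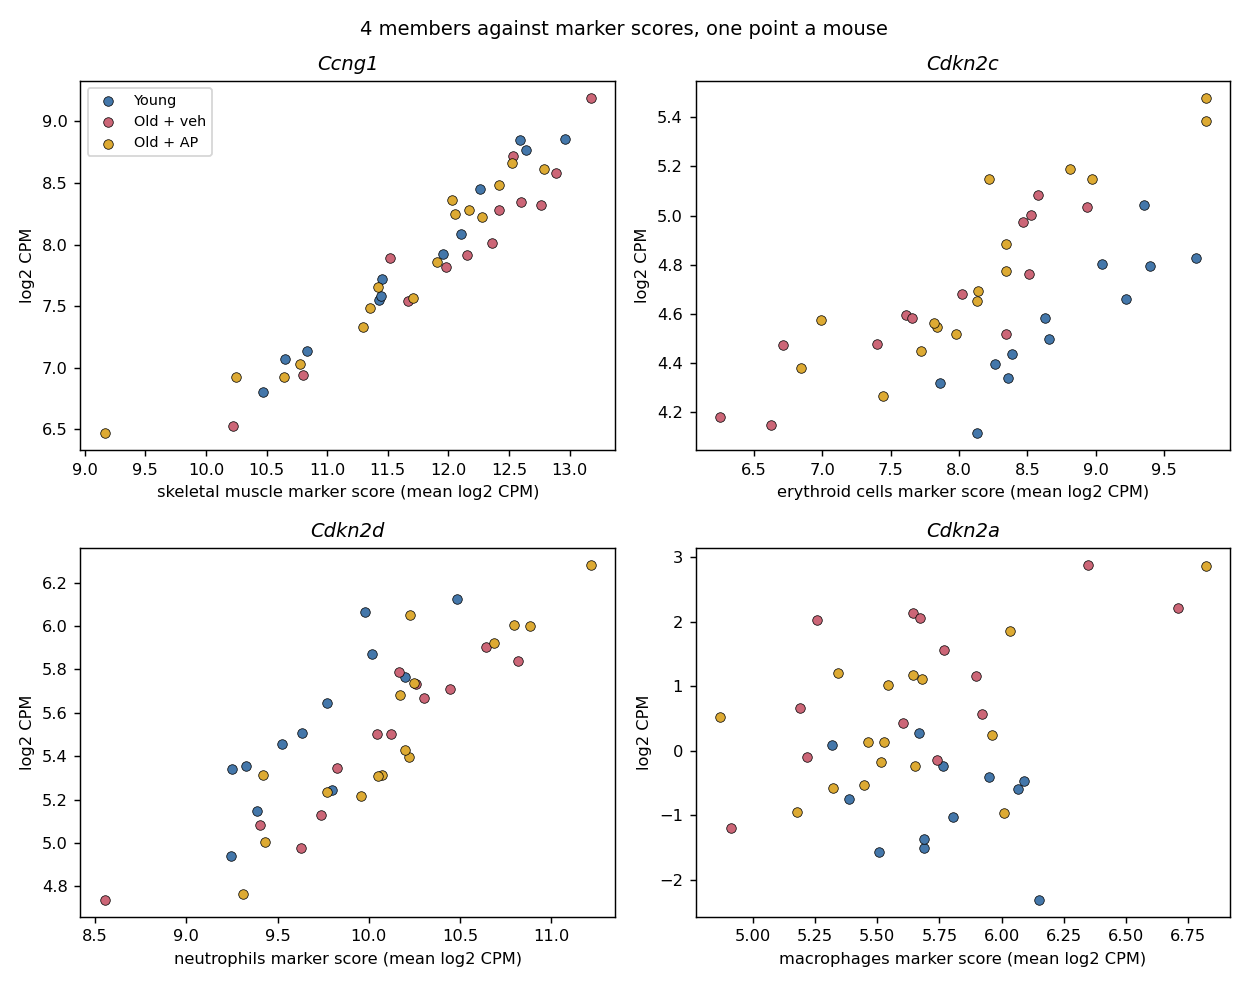
Log2 CPM of 4 genes against the marker score of the cell type with which each had its highest r, with 1 point a mouse coloured by group. Ccng1 lay close to a line over the muscle scores in all 3 groups (r = 0.96), Cdkn2c rose with the erythroid score (0.89) and Cdkn2d with the neutrophil score (0.90), while Cdkn2a scattered over the macrophage score (0.47).

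Genes downstream of these regulators were described through lists of pathway genes. Of 34 p53 target genes, 2 were called higher and 0 lower in old + veh against young mice, against 4.3% and 4.76% of all genes, and their median log2 fold change was 0.10 beside 0.00663 over all genes tested. Eda2r, a TNF receptor family member, was at 4.68 CPM at the lowest, 9.33 at the median and 18.6 at the highest in young mice, and at 7.97, 28.1 and 148 CPM in old + veh mice, where mouse 16 was highest and the next was 57.0. The log2 fold change of Eda2r was 1.84 (adjusted p = 0.000368) and, without old + veh mouse 16, 1.44 (adjusted p = 0.00132). With the muscle score in the model it was 1.43 (adjusted p = 1.06e-05), and with the neutrophil and erythroid scores 1.51 (adjusted p = 0.00288). Gadd45a, a stress response gene that slows the cycle, was at 16.1, 18.9 and 30.5 CPM in young mice and at 17.9, 27.05 and 131 CPM in old + veh mice, with mouse 16 again highest and the next at 36.96. The log2 fold change of Gadd45a was 0.79 (adjusted p = 0.00609), but without old + veh mouse 16 it was 0.41 (adjusted p = 0.0127), under the fold change of a call. By adjusted p alone 11 of the 34 passed, 7 higher and 4 lower, against 19.4% of all genes.

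Eda2r was the only 1 of the 34 targets called in old + AP against young mice, where 8.58% of all genes were, at 1.12 (adjusted p = 0.0204), and at 1.23 (adjusted p = 0.0127) without old + AP mice 18 and 19. Between the old groups edgeR called 0 of the 34, with 8 at an unadjusted p under 0.05 (23.9% of all genes were) and a median of -0.07. When old + AP mice 18 and 19 were left out 1 of the 34 had an unadjusted p under 0.05, against 13.3% of all genes. Trp63, a p53 family member of surface epithelia, was called in old + veh against young mice, from 4.66 ± 1.96 CPM (SD, n = 12) to 10.5 ± 5.02 (n = 13), at a log2 fold change of 1.17 (adjusted p = 0.00334). The muscle score in the model gave 0.85 (adjusted p = 7.98e-07), and the neutrophil and erythroid scores gave 0.99 (adjusted p = 0.0238). Of 18 p53 regulators none was called in any comparison, with 5, 8 and 5 at an unadjusted p under 0.05 in old + veh against young, old + AP against old + veh and old + AP against young mice, where 31.8%, 23.9% and 32.2% of all genes were. The counts were 5, 6 and 2 when old + AP mice 18 and 19 were left out, where 33.8%, 13.3% and 28.2% of all genes were.

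On the side of the retinoblastoma pathway, 24 replication and mitosis genes stood as follows. In the age comparison 0 were called in old + veh against young mice, 0 had an unadjusted p under 0.05, against 31.8% of all genes, and the median log2 fold change was -0.03. Between the old groups 0 were called by edgeR, but 18 had an unadjusted p under 0.05, against 23.9% of all genes, 24 of 24 had a positive log2 fold change, and the median was 0.38 beside -0.00366 over all genes. Without old + AP mice 18 and 19 the median was 0.24, 24 of 24 were positive and 3 had an unadjusted p under 0.05, against 13.3% of all genes. In the same comparison edgeR called 0 markers of each cell-type list named next. None of 10 skeletal muscle markers (median log2 fold change -0.45) and none of 9 osteoblast markers (-0.23) was positive. Positive values were held by 10 of 10 B cell (0.47), 7 of 9 erythroid (0.45) and 10 of 10 neutrophil markers (0.18). So they were by 8 of 8 T cell (0.43) and 5 of 8 chondrocyte markers (0.80). An unadjusted p under 0.05 was held by 2 muscle, 4 B cell, 3 erythroid and 4 chondrocyte markers, against 23.9% of all genes. For osteoblast, neutrophil and T cell markers that count was 0. These counts were not made without mice 18 and 19. The part of the cell-type markers in the shift of the replication genes was not tested. Mcm6, a subunit of the replicative helicase, was called in old + AP against young mice at 0.58 (adjusted p = 0.0120) and was at 0.41 (adjusted p = 0.0592) without old + AP mice 18 and 19. Both score models put it at 0.48, under the fold change of a call. Of 15 CDKs and cyclins 1 was called in old + AP against young mice, where 8.58% of all genes were. Ccnd2 (cyclin D2) was at 0.51 (adjusted p = 0.00710), and it was at 0.42 (adjusted p = 0.0309) without old + AP mice 18 and 19 and 0.41 (adjusted p = 0.0130) without old + AP mouse 24. With the neutrophil and erythroid scores in the model it was at 0.42 (adjusted p = 0.142). Of 13 pocket protein and E2F genes 1 was called in old + veh against young mice, where 9.06% of all genes were. It was Tfdp2, a partner of E2F factors, which fell by 0.54 (adjusted p = 0.0119). Adding the neutrophil and erythroid scores to the model gave -0.18 (adjusted p = 0.353).

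The list of 8 CDK inhibitors also included Cdkn1c, which encodes the imprinted inhibitor p57Kip2. Cdkn1c was called lower in old + AP against young mice, at 8.53 ± 3.02 CPM (SD, n = 16) against 12.7 ± 2.82 (n = 12). Its log2 fold change was -0.57 (adjusted p = 0.0108), -0.48 (adjusted p = 0.0237) without old + AP mice 18 and 19, and -0.36 (adjusted p = 0.272) with the neutrophil and erythroid scores in the model. Of 23 Polycomb genes and other regulators of the Cdkn2a locus, 2 were called in old + veh against young mice, where 9.06% of all genes were. Ets2, an activator of the p16Ink4a promoter, was at 0.52 (adjusted p = 0.000205) and at 0.42 (adjusted p = 0.000213) without old + veh mouse 16, its highest. With the muscle score it was at 0.46 (adjusted p = 9.68e-05) and with the neutrophil and erythroid scores at 0.47 (adjusted p = 0.00132), both under the fold change of a call. Tbx3, a T-box repressor of the locus, was at 0.62 (adjusted p = 0.0314), and its adjusted p was under 0.05 in 19 of 25 fits with 1 mouse left out. It was at 0.46 (adjusted p = 0.0130) with the muscle score in the model and at 0.61 (adjusted p = 0.0541) with the neutrophil and erythroid scores. Tbx2, a relative of Tbx3, was called in old + AP against young mice at -0.88 (adjusted p = 0.00640), at -0.77 (adjusted p = 0.0170) without old + AP mice 18 and 19, and at -0.69 (adjusted p = 0.207) with the neutrophil and erythroid scores in the model. The median of the 23 was -0.00343 in old + veh against young mice.

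**Figure D5:**
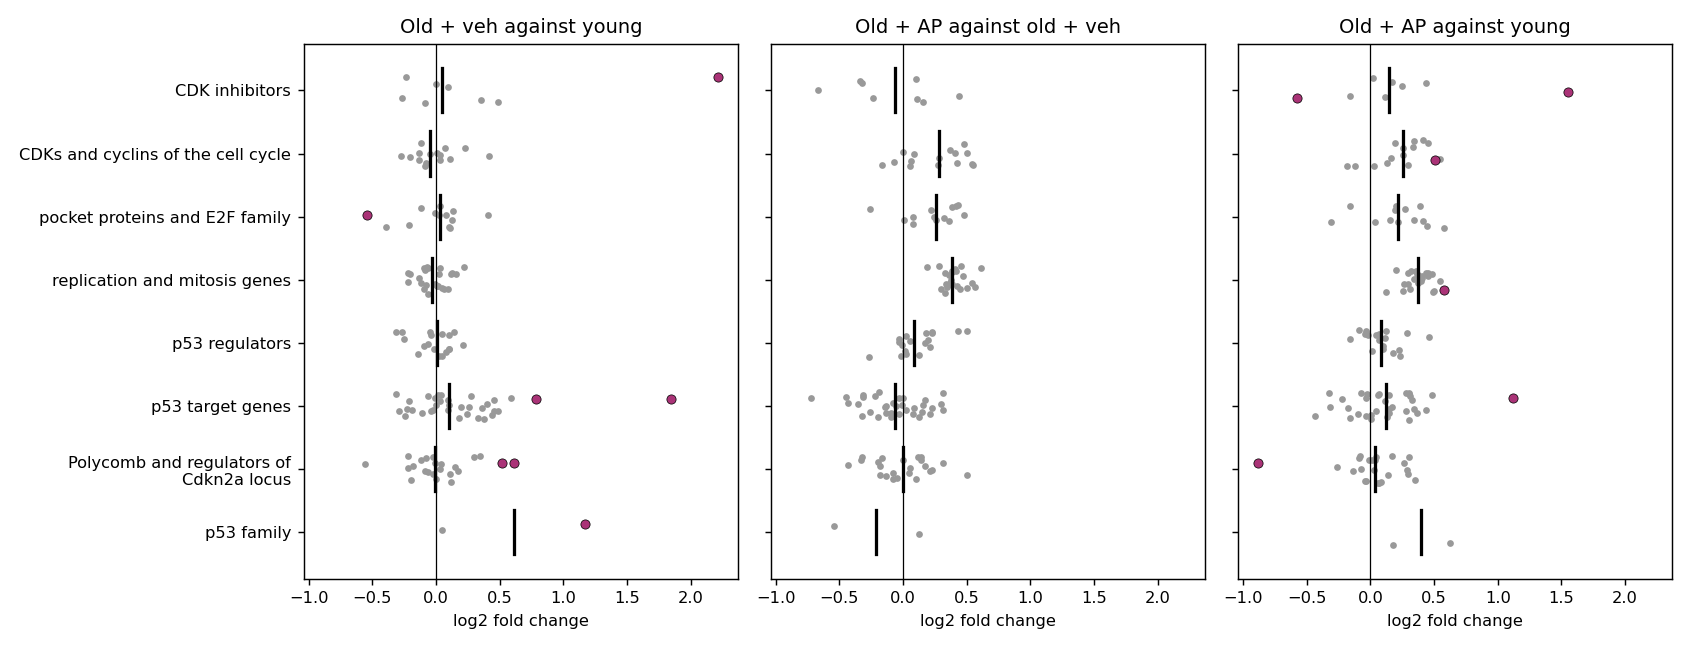
Log2 fold changes of the genes of 8 pathway lists in the 3 comparisons, with 1 point a gene, a black bar at the list's median and larger purple points for genes called. The replication and mitosis genes lie about 0 in old + veh against young mice (median -0.03) and all to the right of 0 in old + AP against old + veh mice (median 0.38).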

How the data were processed

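Bulk RNA sequencing was measured in 41 mice. Per the labels and the submitters' processing notes, the authors aligned reads with TopHat2 (version 2.0.6) to mouse build GRCm38 and counted them per gene with HTSeq, and they deposited raw counts. The annotation release and strand setting are not given in the sources used here. Every column matched a mouse of the labels. Genes were filtered with filterByExpr, scaled by TMM and tested with edgeR (version 4.0.16, R 4.3.3), using quasi-likelihood tests in 1 model of all 41 mice with group as the only term and Benjamini-Hochberg adjustment over 19292 genes. A call needed an adjusted p under 0.05 and an absolute log2 fold change above 0.5. Adjusted p-values of group comparisons are from edgeR unless DESeq2 is named. Correlations and spread used log2 CPM (prior count 2), correlations after removal of group means, with 100000 permutations. Python 3.11.15, NumPy 2.4.6, SciPy 1.17.1 and matplotlib 3.10.9 were used.

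Counts of 37028959 to 75942717 per mouse set the precision: Cdkn2a rested on as few as 8 reads in a mouse. The p-values of group comparisons set the differences against the spread between mice as labelled. The 10 members and all gene lists were chosen with earlier results of these data known. Beyond the members, the text names Cdkn2a's tested neighbours, up to 4 called genes per pathway list and comparison by size of change, and the 3 genes most correlated with each of Cdkn2a, Cdkn1a and Mdm2, of which 1 is not reported here. The alternatives were DESeq2 (version 1.42.0), its size factors in edgeR, no filter, models of 2 groups, cell-type scores as covariates and each mouse left out. Leaving out old + AP mice 18 and 19, the marker-score correlations and the pairs with muscle removed were chosen after seeing the data. Scripts were tested on simulated data. The osteocyte score and other scores are means of log2 CPM over listed markers.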

Additional observations from a re-analysis of the deposited data

How the results depend on the processing

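Limits: bone RNA held several tissues in varying amounts, Cdkn2a was read at low counts, and its transcripts were not separated. In old + veh against young mice 1 member was called, 3 with no fold threshold, and 1 to 2 with 1 mouse left out. Of 8 pair correlations 5 passed, and 2 without old + AP mice 18 and 19. No paired analysis was possible because the groups share no mouse numbers.

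Several log2 fold changes, none past the threshold, changed sign, and the cause was not tested. With the muscle score in the model Cdkn2d was 0.0385 and Ccng1 -0.15 in old + veh against young mice. For AP against vehicle in old mice Cdkn2c was -0.0193, Cdkn2d -0.0817, Mdm2 0.000971 and Ccng1 0.16. In old + AP against young mice Cdkn2d was -0.0432 and Ccng1 0.00513. With neutrophil and erythroid scores Ccng1 was -0.11 in old + veh against young mice. In old + AP against old + veh mice Cdkn2c was -4.97e-05 and Cdkn2d -0.0575, and in old + AP against young mice Cdkn2d was -0.12. Without old + AP mice 18 and 19 Cdkn2d was -0.00693 against old + veh and -0.0934 against young mice. With 1 mouse left out Ccng1 ran from -0.0364 to 0.20 in old + veh against young mice and Cdkn2d from -0.0569 to 0.0709 in old + AP against young mice. The correlation of Cdkn1a and Mdm2 (r = -0.02) was 0.0753 as Spearman's rho, 0.13 without the 2 farthest mice and 0.0862 without mice 18 and 19. That of Cdkn1a and Ccng1 was -0.30 with muscle removed.

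Over all genes, calls in old + AP against old + veh mice numbered 14 in edgeR, 217 in DESeq2, 76 with neutrophil and erythroid scores, 1 with the muscle score, and 0 with no filter, in the model of 2 groups or without mice 18 and 19. With neutrophil and erythroid scores 1008 genes were called in old + veh against young mice (1748 without) and 615 in old + AP against young mice (1655 without).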

Other observations

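Likeness to 3 members was ranked over 15540 genes whose average reached 1 CPM. Those whose log2 CPM correlated best with Cdkn2a over the 41 mice, after removal of group means, were Hps6, Zfp362 and Trim8, each with r = 0.84. For Cdkn1a they were Baiap2l2 (r = 0.85), Ptk2 (0.83) and Ift43 (0.83), and for Mdm2 they included Armc8 (0.84) and Kif5b (0.84). These values describe the mice measured here. They share libraries and depth, and no test was made of them.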
